A study of Rattus norvegicus with 20 samples.

Results

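Adipose tissue of rats that received 20% less food for 1 week was compared with that of rats that received their full recorded intake. The 20% group was 1 pool of RNA from 5 male Wistar rats and the control group was another pool of 5, and each pool was read on 2 chips, so 4 of the 20 chips and 2 of the 10 pools of the series enter the comparison. All rats were 6 weeks old at the start, were kept singly on a purified powdered diet and were fasted for 16 h before visceral white fat was taken. The controls were therefore also on a measured ration and fasted when sampled. The other pools held rats on 5%, 10% and 30% restriction for 1 week, and rats on 0%, 5%, 10%, 20% and 30% restriction for 1 month.

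White fat stores triglyceride after meals and releases fatty acids when food is short. Its adipocytes take up, esterify and hydrolyse fat under the control of insulin, catecholamines and glucocorticoids, and the circadian clock, a loop of transcription factors that also runs in fat cells, is set in part by the time and size of meals. Calorie restriction (CR) is known to lower fat mass and to change fat tissue early. Visceral fat also contains vessels, mesothelium, macrophages and lymphocytes, and small lymph nodes and neighbouring organs can be taken with it.

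Values are MAS5 signals, a summary of the probe pairs of a probe set on a linear scale, read on an Affymetrix rat array. Differences are log2 signal of the 20% pool minus log2 signal of the control pool, taken within first chips and within second chips, because the first chips were scaled to a trimmed mean signal of 77.2 and the second chips to 110.9. The value after ± is the SD of those 2 differences (n = 2 chip pairs). It measures the assay only. With 1 pool per group there is no spread between rats or pools and no test of the diet, so no p-value is given. A probe set was called higher or lower when both chip pairs had one sign and their mean was at least 1.5-fold, which is 0.585 on the log2 scale.

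In the 20% pool, higher calls outnumbered lower ones in the lists of clock output, fat oxidation, triglyceride synthesis and drug metabolism, with Dbp 7.93-fold above the control pool. Lower calls outnumbered higher ones in those of lymphocytes, class II antigen presentation, smooth muscle, the cytoskeleton and cholesterol synthesis, with list medians between −1.51 and −0.37 on the log2 scale. Of 9506 probe sets tested, 676 (7.11%) were called higher in the 20% pool and 820 (8.63%) lower. With the brightest probe set standing for each gene, 510 of 7103 genes (7.18%) were called higher and 608 (8.56%) lower. The counts of each list below are to be read beside those shares of genes. At least 2-fold differences were fewer, 159 probe sets higher and 249 lower, and 4-fold differences were 11 higher and 18 lower. The split leaned on scaling. When each chip was centred on its median, which moved the median of all probe sets by 0.14, 1123 were called higher and 542 lower, so that 67.4% of calls were higher in place of 45.2%. Signal mattered for the lower calls. Over the 20 chips 3673 of the 9506 probe sets tested had a mean signal below 64. So did 498 of the 820 lower calls and 234 of the 676 higher calls. The chip pairs gave opposite signs for 29.4% of probe sets, their median SD was 0.25 below a signal of 64 and 0.11 above 256, and their differences correlated at 0.62 (Pearson, across probe sets, which are not independent replicates).

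**Figure D1:**
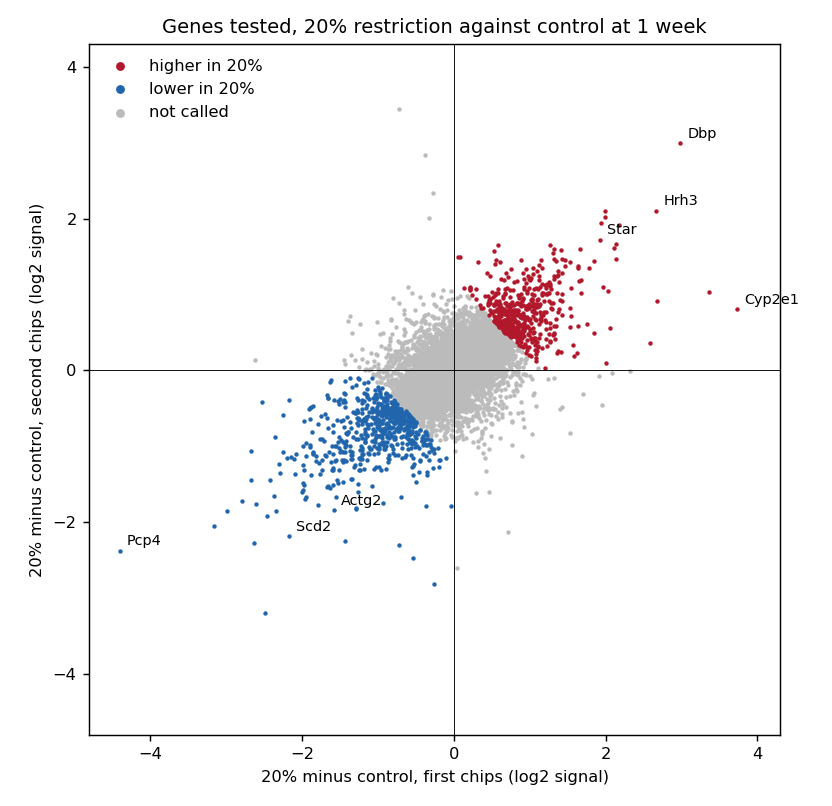
Log2 difference of the 20% pool from the control pool at 1 week on the first chips (horizontal) and on the second chips (vertical), with 1 point per gene tested. The 510 genes called higher lie up and to the right and the 608 called lower lie down and to the left; Cyp2e1 sits far from the diagonal because its chip pairs differed (SD 2.06).

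Markers of other tissues and cell types stood at different levels in the pools. Of the 38 exocrine pancreas genes on the array, 33 stood above the low-signal filter on each control chip, and 3 and 4 did so on the 20% chips. The mean log2 signal of that list was 2.49 in the 20% pool and 9.05 in the control pool, and between 2.63 and 4.50 in the other 8 pools. Prss1, a trypsinogen, read 7.8 and 7.7 on the 20% chips, against 6018 and 6379 on the control chips. These genes, and others with the same excess in the control pool, were set aside from every count, which took 14 of the 9520 probe sets past the filter. White adipocyte markers, 12 of 12 above the filter on all 4 chips, averaged 10.00 in the 20% pool and 9.57 in the control pool, which was the lowest of the 10 pools. Adipoq, Cidec and Retn were not analysed here. Lymphocyte markers (11 tested genes) averaged 6.34 in the 20% pool and 7.81 in the control pool, and 3.98 to 7.75 elsewhere. Smooth muscle and pericyte markers averaged 6.90 in the 20% pool and 7.37 in the control pool, and 6.88 to 8.05 in the others. In such pooled tissue, fewer cells of a type and less RNA per cell cannot be told apart, and the part of tissue makeup in the differences below was not tested.

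Clock genes had the highest median difference of all lists. Dbp, a transcription factor that binds D-boxes and is itself a direct output of the clock, had the largest difference of any gene called higher. Its signal was 249 and 327 on the 20% chips, against 31.5 and 41.1 on the control chips, a difference of 2.99 ± 0.0068 or 7.93-fold. Of the clock's negative arm and output, 10 of 11 tested genes were called higher and 0 lower, with a median difference of 1.13, against a median of −0.0020 over all genes. Usp2, a deubiquitinase with a clock-driven rhythm, read 47.8 and 47.1 on the 20% chips, against 13.3 and 17.3 on the control chips (1.65 ± 0.28). Nr1d2, the nuclear receptor REV-ERB beta that represses clock genes, read 171 and 297 on the 20% chips, against 68.4 and 97.9 on the control chips (1.46 ± 0.20), and all 3 of its probe sets were called higher. Tef, a D-box factor related to Dbp, had low signals of 25.0 and 44.5 on the 20% chips, against 7.8 and 19.5 on the control chips (1.44 ± 0.35). Per2, a repressor of the clock, read 80.4 and 87.3 on the 20% chips, against 31.2 and 43.2 on the control chips (1.19 ± 0.25). The 20% chip lay above the control chip of its own number in every one of these pairs. Hlf (1.13), Nr1d1 (1.05), Bhlhe41 (0.80), Per1 (0.73) and Cry2 (0.70) were also called higher, and Bhlhe40 (0.40) was not called. Per3, Cry1, Ciart and Nfil3, the rest of the list, were not tested here. Clock itself, of the positive arm, read 46.1 and 75.7 on the 20% chips, against 64.9 and 121 on the control chips, and was called lower (−0.59 ± 0.13) on both of its probe sets.

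The promoters of these genes were read to show what they share in sequence. The clock's activators bind the E-box CACGTG, and Dbp, Tef and Hlf bind the D-box TTATGTAA. Both motifs were searched on both strands in the 300 bases from 250 before to 50 after each transcript start in RefSeq's table (GRCr8). Of the 10 genes of the list with a promoter there, 3 held an E-box and 1 a D-box, so most windows held neither, against 6.65% and 0.881% of all 27457 promoters. The 4 promoters below belong to Dbp, the gene of largest difference, and to Tef, Bhlhe41 and Per2, with matches in capitals.
Dbp (chr1:105312006-105312305, plus strand): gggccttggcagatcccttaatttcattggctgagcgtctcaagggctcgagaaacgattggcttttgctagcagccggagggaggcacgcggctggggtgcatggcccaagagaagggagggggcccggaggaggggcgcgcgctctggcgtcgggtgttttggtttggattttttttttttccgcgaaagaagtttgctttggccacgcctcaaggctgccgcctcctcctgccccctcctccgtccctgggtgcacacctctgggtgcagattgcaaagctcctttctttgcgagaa
Tef (chr7:115206577-115206876, plus strand): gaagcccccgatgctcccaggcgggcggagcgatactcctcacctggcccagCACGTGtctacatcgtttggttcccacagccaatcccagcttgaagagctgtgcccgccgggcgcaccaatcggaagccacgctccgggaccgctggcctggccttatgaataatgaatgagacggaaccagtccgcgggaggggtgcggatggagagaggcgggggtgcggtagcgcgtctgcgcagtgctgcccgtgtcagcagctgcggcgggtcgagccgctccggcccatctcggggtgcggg
Bhlhe41 (chr4:180569306-180569605, minus strand): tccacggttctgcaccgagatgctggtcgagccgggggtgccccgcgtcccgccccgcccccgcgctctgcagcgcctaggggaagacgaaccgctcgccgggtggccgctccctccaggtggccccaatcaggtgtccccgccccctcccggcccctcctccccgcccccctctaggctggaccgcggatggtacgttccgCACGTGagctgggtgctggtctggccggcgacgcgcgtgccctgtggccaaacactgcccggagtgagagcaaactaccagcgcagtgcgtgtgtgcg
Per2 (chr9:99496944-99497243, minus strand): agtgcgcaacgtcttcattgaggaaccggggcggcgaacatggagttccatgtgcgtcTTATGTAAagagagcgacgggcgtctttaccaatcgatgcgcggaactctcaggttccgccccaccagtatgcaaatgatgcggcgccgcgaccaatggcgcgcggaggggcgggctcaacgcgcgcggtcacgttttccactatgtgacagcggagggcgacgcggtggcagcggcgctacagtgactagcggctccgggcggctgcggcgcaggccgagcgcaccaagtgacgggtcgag
The E-box began 198 bases before the start in Tef and 48 bases before it in Bhlhe41, and the D-box began 192 bases before it in Per2. The Dbp window held neither string of letters, and the other E-box, 220 bases before the start, lay in Bhlhe40, a repressor that was not called (0.40). A match describes the letters and is not evidence of binding.

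The rest of the leading higher genes were of several kinds. Hrh3, the histamine H3 receptor, read 192 and 246 on the 20% chips, against 30.3 and 57.3 on the control chips (2.38 ± 0.40), on the brighter of its 2 probe sets, both called higher. Gabbr1, a subunit of the GABA-B receptor, read 296 and 455 on the 20% chips, against 74.2 and 112 on the control chips (2.01 ± 0.020); 2 of its 3 probe sets were called. Coq8a, an atypical kinase needed for coenzyme Q synthesis, read 454 and 730.1 on the 20% chips, against 100.3 and 193 on the control chips (2.05 ± 0.18), and Ehhadh, the bifunctional enzyme of peroxisomal beta-oxidation, read 88.9 and 147 on the 20% chips, against 22.4 and 34.3 on the control chips (2.05 ± 0.080). All 4 exceeded the control signal on both chip pairs, and by more than 4-fold in the mean. Star, which carries cholesterol to the inner mitochondrial membrane for steroid synthesis, read 378 and 511 on the 20% chips, against 99.6 and 155 on the control chips (1.82 ± 0.14). Metrnl, a secreted meteorin-like protein, differed by 1.64 ± 0.045, Slc7a8, an amino acid transporter, by 1.87 ± 0.35, Ctdspl, a phosphatase, by 1.94 ± 0.0059, Inmt, a methyltransferase, by 1.90 ± 0.33, and Smoc1, a matrix protein, by 1.80 ± 0.47. For another 3 genes the first control chip was much dimmer than the second. Cyp2e1, a cytochrome P450, read 33.1 and 33.1 on the 20% chips, against 2.5 and 18.9 on the control chips (2.27 ± 2.06), Pdgfrl read 48.3 and 56.9 on the 20% chips, against 4.7 and 27.9 on the control chips (2.19 ± 1.65), and Pkn3, a protein kinase, read 48.2 and 65.0 on the 20% chips, against 7.5 and 34.6 on the control chips (1.80 ± 1.25).

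The leading lower genes were of 2 kinds, leukocyte genes and others. Immunoglobulin and lymphoid genes included Ighl2, a heavy chain probe set whose signal was 219 and 365 on the 20% chips, against 1948 and 1510 on the control chips (−2.60 ± 0.78), and Iglc1, a lambda light chain (−2.06 ± 0.87); members of these families can share probes. Glycam1, a mucin-like ligand made by venules of lymph nodes, read 64.3 and 99.0 on the 20% chips, against 399 and 478 on the control chips (−2.45 ± 0.26), and Cxcl13, which attracts B cells, read 61.2 and 102 on the 20% chips, against 309.5 and 366 on the control chips (−2.09 ± 0.35). Tnfrsf14 (−2.25), Bin2 (−2.19), Ptprcap (−2.18), Spn (−2.01) and Irf8 (−1.93), all expressed in blood cells, had lower signals too. The others were mostly dim. Pcp4, a calmodulin-binding peptide, had the largest difference of any gene called lower, with 1.4 and 9.3 on the 20% chips, against 29.6 and 48.3 on the control chips (−3.39 ± 1.43), so both 20% chips were under the low-signal filter of 22.8 and the chip pairs lay far apart. Ggt1, which cleaves glutathione outside the cell, read 11.0 and 6.2 on the 20% chips, against 61.6 and 56.7 on the control chips (−2.84 ± 0.50), Cap2, an actin regulator, read 3.6 and 12.6 on the 20% chips, against 28.5 and 45.3 on the control chips (−2.42 ± 0.81), Map1a, a microtubule protein, differed by −1.86 ± 1.13, and Grem1, an antagonist of bone morphogenetic proteins, by −1.84 ± 0.58. From the same control pool Ggt1 differed by −1.18, −0.90, −2.84 and −1.67 at 5%, 10%, 20% and 30%, and by −0.35 at 1 month. Pancreas markers stood high in that control pool, and their part in Ggt1 was not tested. Scd2, a stearoyl-CoA desaturase, had chip pairs that hardly differed, at 52.5 and 64.9 on the 20% chips, against 237 and 296 on the control chips, a difference of −2.18 ± 0.0087 or 4.53-fold lower on the brighter of 2 probe sets, both called.

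**Figure D2:**
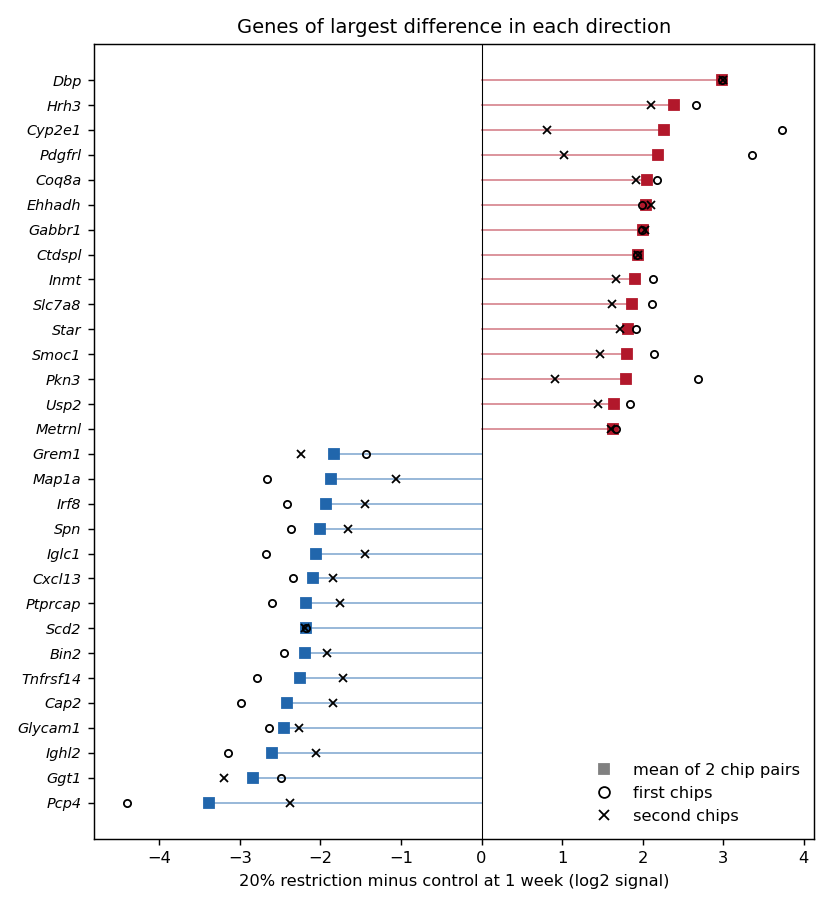
Log2 difference of the 20% pool from the control pool at 1 week for the 15 genes of largest difference called higher (top) and the 15 called lower (bottom), where squares are means of the 2 chip pairs, circles the first chips and crosses the second. Dbp lies at 2.99 with both pairs on one spot, whereas Cyp2e1 and Pcp4 have pairs more than 2 log2 units apart.

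In mitochondrial fat oxidation calls went 1 way. 9 of 20 tested genes were called higher and 0 lower, all 20 differences were above 0, and the median was 0.50. Cpt1b, the muscle-type carnitine palmitoyltransferase that admits long-chain fatty acids to mitochondria, read 139 and 193 on the 20% chips, against 63.6 and 90.5 on the control chips (1.11 ± 0.027). Its partner Cpt2 differed by 0.71 ± 0.27, Acadl, the long-chain acyl-CoA dehydrogenase, by 0.73 ± 0.14, and Acaa2, the thiolase, by 0.83 ± 0.23. Cpt1a, the liver form of the entry enzyme, differed by only 0.11 and was not called. In peroxisomal beta-oxidation 2 of 12 tested genes were called higher and 0 lower (median 0.39), namely Ehhadh and Crot, a carnitine octanoyltransferase (0.63 ± 0.23), of whose 2 probe sets 1 was called. In branched-chain amino acid breakdown 4 of 19 tested genes were called higher and 0 lower (median 0.37), led by Bckdha, a subunit of the branched-chain keto acid dehydrogenase, at 111 and 187 on the 20% chips, against 54.2 and 93.1 on the control chips (1.02 ± 0.020). Mccc1 (0.60), Mccc2 (0.74) and Hibch (0.73), later enzymes of that pathway, were called as well. In the tricarboxylic acid cycle list 1 of 18 genes was called, Pc, the pyruvate carboxylase that refills the cycle (0.76 ± 0.035), and the median was 0.40. None of 38 genes of the respiratory chain and ATP synthase was called in either direction (median 0.19), and Ndufb8, at 0.58, came nearest. Of white adipocyte markers 5 of 12 tested genes were called higher and 0 lower (median 0.32), and 11 differences were above 0. Those called include Pnpla2 and Pparg, which also stand in the lists of lipolysis and of adipocyte regulators below. Among the 7 not called, Fabp4 read 4060 and 6070 on the 20% chips, against 4029 and 5168 on the control chips, and Lep lay below 0. The part of adipocyte content in these groups was not tested.

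Among genes that build and break down stored fat most calls were higher, although most members were not called. In triglyceride synthesis 3 of 9 tested genes were called higher and 0 lower (median 0.48). Dgat1, which adds the last acyl chain, read 760.3 and 1285 on the 20% chips, against 343 and 469 on the control chips (1.30 ± 0.22), Lpin1, a phosphatidate phosphatase, differed by 0.91 ± 0.073 and Agpat2, an acyltransferase of the same pathway, by 0.73 ± 0.20. In lipolysis and the lipid droplet 5 of 12 tested genes were called higher and 1 lower (median 0.24). Pde3b, the phosphodiesterase through which insulin restrains lipolysis, read 278 and 427 on the 20% chips, against 95.8 and 159 on the control chips (1.48 ± 0.079), and Pnpla2, adipose triglyceride lipase, read 1968 and 2942 on the 20% chips, against 1088 and 1608 on the control chips (0.86 ± 0.011). The droplet proteins Cidea (0.88 ± 0.0060) and Plin4 (0.67 ± 0.16) were called higher, while G0s2, an inhibitor of Pnpla2, was called lower at 538 and 709.5 on the 20% chips, against 755 and 1415 on the control chips (−0.74 ± 0.36). Of the fatty acid uptake genes 3 of 15 were called higher. Slc27a1, a fatty acid transport protein, read 1060 and 1656 on the 20% chips, against 453 and 749.6 on the control chips (1.19 ± 0.058), Gpihbp1, which anchors lipoprotein lipase on capillaries, differed by 1.09 ± 0.15 and Acsl4, an acyl-CoA synthetase, by 0.68 ± 0.13, whereas Cd36, a fatty acid receptor, stood at 0.54 ± 0.16 and was not called.

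Among regulators of the adipocyte 4 of 19 tested genes were called higher and 1 lower. Pparg, the nuclear receptor that drives adipocyte identity, read 693 and 988 on the 20% chips, against 278 and 417 on the control chips, a 2.43-fold difference (1.28 ± 0.051). Nr1h3, the oxysterol receptor LXR alpha (0.94 ± 0.085), and Klf15, a transcription factor of fasting metabolism (0.79 ± 0.069), were called higher, and Thra, a thyroid hormone receptor, lower (−0.80 ± 0.49) on 1 of 2 probe sets. Among insulin and IGF signalling genes 5 of 21 tested genes were called higher and 0 lower, yet the median was −0.0029, and 0.14 with chips centred on their medians. Those called were Insr, the insulin receptor, at 31.8 and 43.8 on the 20% chips, against 16.3 and 21.3 on the control chips (1.00 ± 0.054), Grb10, an adaptor that restrains it (1.01 ± 0.19), Igfbp6 (0.78 ± 0.27) and Igfbp2 (0.73 ± 0.42), which bind insulin-like growth factors, and Akt2, the kinase through which insulin acts on glucose uptake (0.71 ± 0.32). Among adipokines Nampt, an enzyme of NAD synthesis that is also secreted, read 274 and 349 on the 20% chips, against 102 and 126 on the control chips (1.45 ± 0.025), and Slpi, a secreted peptidase inhibitor, read 233 and 460.0 on the 20% chips, against 921 and 1088 on the control chips (−1.61 ± 0.52). Lep, which encodes leptin, was not called (−0.42).

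The branches of lipid synthesis differed in their share of calls, beside 7.18% higher and 8.56% lower over all genes tested. In cholesterol synthesis and uptake 0 of 16 tested genes were called higher and 5 lower (31.2%, median −0.37). Dhcr7, the enzyme of the final step to cholesterol, read 80.4 and 125 on the 20% chips, against 205 and 334 on the control chips (−1.39 ± 0.051), and Idi1, the isopentenyl diphosphate isomerase, read 45.3 and 79.3 on the 20% chips, against 102 and 152 on the control chips (−1.05 ± 0.16) on 1 of its 2 probe sets, the other not being called. Hsd17b7 (−0.86), Msmo1 (−0.83) and Nsdhl (−0.83), sterol enzymes between them, were called lower, and Fdft1, squalene synthase, stood at 0.41. Fatty acid synthesis had a median of 0.026, and −0.041 on the first chips alone. There 1 of 18 genes was higher (5.56%) and 2 lower (11.1%), near the shares of all genes. These were Srebf1, a lipogenic transcription factor (0.62 ± 0.24, 1 of 2 probe sets), Pnpla3, a lipase-like protein that follows feeding, at 217 and 320.4 on the 20% chips, against 401 and 616 on the control chips (−0.91 ± 0.042), and Mlxipl, the glucose-responsive factor ChREBP (−0.62 ± 0.24). Glycolysis, at 5.88% in each direction, was near those shares too. It had 1 of 17 genes higher, Pfkfb3, which makes its activator fructose 2,6-bisphosphate (0.60 ± 0.15), and 1 lower, Slc2a1, a glucose transporter with discordant chip pairs (−0.89 ± 1.04).

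Of fasting and glucocorticoid genes 8 of 16 tested genes were called higher and 0 lower (median 0.49). Of the 16 differences, 9 were above 0 and 7 below. Glul, glutamine synthetase, read 1955 and 2737 on the 20% chips, against 791 and 935 on the control chips (1.43 ± 0.17), with all 3 probe sets called. The kinases Pdk2 (1.25 ± 0.18) and Pdk4 (1.14 ± 0.27), which switch off pyruvate dehydrogenase, were higher, Pdk4 at 222 and 293 on the 20% chips, against 115 and 116 on the control chips. Tsc22d3 (0.97 ± 0.059) and Fkbp5 (0.91 ± 0.17), known targets of the glucocorticoid receptor, were called too, while Sgk1 (−0.38), Dusp1 (−0.50) and Angptl4 (−0.053) were not. In steroid hormone synthesis 2 of 6 tested genes were called higher, Star and Por, the electron donor of microsomal P450 enzymes.

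Enzymes of drug and lipid conversion were often higher. Of phase I and conjugation enzymes 12 of 23 tested genes were called higher and 2 lower (median 0.60). Ephx1, microsomal epoxide hydrolase, read 283 and 416 on the 20% chips, against 82.4 and 163 on the control chips (1.57 ± 0.30), and Cbr1, a carbonyl reductase, read 489 and 657 on the 20% chips, against 178 and 254 on the control chips (1.42 ± 0.064). Por read 377 and 529 on the 20% chips, against 169 and 207 on the control chips (1.26 ± 0.14) with both probe sets called, and Fmo1, a flavin monooxygenase, read 159.6 and 183 on the 20% chips, against 65.1 and 105 on the control chips (1.05 ± 0.35). Cyp1b1, a P450 of stromal cells, went the other way at 14.8 and 23.2 on the 20% chips, against 56.9 and 50.5 on the control chips (−1.53 ± 0.58). Glutathione transferases had 2 of 13 genes called higher, Gstt2 (1.02 ± 0.046) and Gstz1 (0.81 ± 0.17). Antioxidant enzymes had 3 of 21 higher (14.3%) and 2 lower (9.52%), beside 7.18% and 8.56% of all genes tested. Among them were Gsr, glutathione reductase, at 80.2 and 100.1 on the 20% chips, against 43.4 and 36.5 on the control chips (1.17 ± 0.40), Hmox1, heme oxygenase, at 46.2 and 68.2 on the 20% chips, against 92.9 and 99.2 on the control chips (−0.77 ± 0.33), and Prdx4, a peroxiredoxin of the secretory pathway (−0.82 ± 0.18). Prdx4 differed from the same control pool by −0.93, −0.88, −0.82 and −0.93 at 5%, 10%, 20% and 30%, yet by −0.018 at 1 month. The pancreas markers that stood high in that control pool moved with it, and their part was not tested.

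Chaperones moved little. 0 of 23 tested genes were called higher and 2 lower, Hsph1 at 86.6 and 131 on the 20% chips, against 153 and 258 on the control chips (−0.90 ± 0.11) and Hspa1a, the inducible Hsp70, at 41.2 and 67.1 on the 20% chips, against 79.1 and 102 on the control chips (−0.77 ± 0.24). The list's median was −0.15, and −0.013 with chips centred on their medians. Its share of lower calls, 8.7%, was near the 8.56% of all genes tested. Of 20 chaperone promoters 10 (50.0%) held the heat shock pair GAANNTTC, against 8.34% of all promoters. The windows of Hspd1 and Hspe1 overlap, and their matches are the same site read on opposite strands. Of the genes called lower, Hsph1 held 1 match and Hspa1a 0. In endoplasmic reticulum folding 2 of 22 genes were higher and 3 lower (median −0.013, turning to 0.13 with centred chips). These shares, 9.09% and 13.6%, were not far from the 7.18% and 8.56% of all genes tested. Creld2 (−1.11 ± 0.034), Sdf2l1 (−0.94 ± 0.38) and Sel1l (−0.79 ± 0.080) were called lower, and Herpud1 (0.81 ± 0.098) and Ddit3 (0.74 ± 0.48) higher. Sel1l differed from the shared control pool by −0.96, −0.92, −0.79 and −0.70 in the order of levels and by −0.12 at 1 month, whereas Creld2 (−0.84) and Sdf2l1 (−1.07) were called lower at 1 month too. Pancreas markers were high in the 1-week control pool beside these secretory genes, and their part was not tested.

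Cytoskeletal genes were called in 1 direction. Of actin filament genes 0 of 25 tested genes were called higher and 9 lower (median −0.48), and of tropomyosins and tubulins 0 of 11 tested genes were called higher and 6 lower (median −0.62). Tubb2b, a beta-tubulin, read 16.6 and 28.0 on the 20% chips, against 64.3 and 90.9 on the control chips (−1.83 ± 0.18), Tuba4a, an alpha-tubulin, differed by −1.20 ± 0.048, and Tpm2, a tropomyosin of muscle, read 179 and 272 on the 20% chips, against 356 and 532 on the control chips (−0.98 ± 0.017). The actin genes with the largest differences were Coro1a (−1.74), which is also on the lymphocyte marker list, Cotl1 (−1.59) and Lcp1 (−1.48). Leukocytes express these genes at high level. The lymphocyte markers moved with them, and the part of leukocytes was not tested. Actg1, the widely expressed gamma-actin, stood at −0.25 ± 0.57 and changed sign between chip pairs.

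Most smooth muscle genes were called lower in this comparison and higher at 1 month. At 1 week 2 of 11 tested genes were called higher and 7 lower, with a median of −0.71. Actg2, the gamma-actin of visceral smooth muscle, read 68.0 and 96.5 on the 20% chips, against 204 and 345 on the control chips (−1.71 ± 0.18), and Cnn1, calponin, read 25.5 and 27.5 on the 20% chips, against 53.7 and 78.8 on the control chips (−1.30 ± 0.31). Mylk, myosin light chain kinase, read 215 and 317 on the 20% chips, against 406 and 609 on the control chips (−0.93 ± 0.016). Tagln (−0.80), Des (−0.72), Acta2 (−0.71) and Myh11 (−0.60), proteins of the contractile cell, were called lower, whereas Mcam (0.81) and Pdgfrb (0.63), membrane proteins of pericytes, were called higher. In the pools of 1 month 8 of the 11 were called higher in the 20% pool and 0 lower (median 1.06), where Actg2 read 911 and 789.6 on the 20% chips, against 287 and 249 on the control chips and Cnn1 read 185 and 194 on the 20% chips, against 52.0 and 55.7 on the control chips.

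Most lymphocyte and class II genes were called lower. Of lymphocyte markers 0 of 11 tested genes were called higher and 10 lower (median −1.51). Cd3g, a chain of the T cell receptor complex, read 99.5 and 209 on the 20% chips, against 486 and 532 on the control chips (−1.82 ± 0.66), Cd5 read 38.8 and 56.5 on the 20% chips, against 149 and 179 on the control chips (−1.80 ± 0.20), and Cd79b, of the B cell receptor, read 63.0 and 113 on the 20% chips, against 271 and 255 on the control chips (−1.64 ± 0.66). Cd4, which macrophages of the rat also carry, was not called (−0.44). In class II antigen presentation 0 of 10 tested genes were called higher and 8 lower (median −1.17). Ciita, the class II transactivator, differed by −1.45 ± 0.62, RT1-Bb read 500.0 and 667 on the 20% chips, against 1261 and 1796 on the control chips (−1.38 ± 0.067), and Cd74, the invariant chain, read 839.9 and 1234 on the 20% chips, against 2390 and 3074 on the control chips (−1.41 ± 0.14); RT1 genes are close copies and can share probes. Of macrophage markers 0 of 16 tested genes were called higher and 5 lower (median −0.33), including Lyz2 (−0.94 ± 0.26), Tyrobp (−0.93 ± 0.27) and Fcgr2b (−0.93 ± 0.53). Interferon-response genes had 1 of 17 higher, Oas1a (0.95 ± 0.32), and 6 lower, among them Ifitm1 (−0.98 ± 0.41), Mx1 (−0.98 ± 0.75) and Psmb10 (−0.95 ± 0.16). Complement had 1 of 12 genes called, C1r (0.62 ± 0.43).

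The lymphocyte marker level of the pools moved with many of these calls. Over the other 8 pools, 399 of 9506 probe sets (4.2%) followed the lymphocyte score with a correlation of at least 0.9, and they made up 262 of the 820 lower calls (32.0%) and 0 of the 676 higher calls. Without them 558 probe sets were called lower and 676 higher. Only probe sets that rose with the score could enter this count. In the opposite direction, 42 of 9506 probe sets (0.442%) ran against the score. They made up 17 of the 676 higher calls (2.51%) and 0 of the 820 lower calls. The part of lymphocyte content in the higher calls was not tested. The probe sets that followed the score include markers that make it up, Coro1a, Cd3g, Cd5 and Cd79b among them. The correlations of these markers were high by construction. Coro1a, Lcp1, Mcm3, Glycam1 and Scd2 were inside that set, with correlations of 0.998, 0.986, 0.977, 0.978 and 0.954 (Pearson, n = 8 pools, given as a description). Outside it lay Dhcr7 (0.71), Mest (0.081), Oxtr (0.37), Actg2 (0.22) and Gls2 (−0.18), a glutaminase that read 17.1 and 24.3 on the 20% chips, against 53.0 and 71.2 on the control chips (−1.59 ± 0.057).

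Some genes of dividing cells were called lower too. In DNA replication and the cell cycle 0 of 21 tested genes were called higher and 9 lower (median −0.49). Mcm3, of the replicative helicase, read 26.4 and 32.5 on the 20% chips, against 72.3 and 90.0 on the control chips (−1.46 ± 0.011), Mcm6 differed by −1.34 ± 0.58, Cks2, a partner of cyclin-dependent kinases, by −1.34 ± 0.75, and Pclaf, which binds PCNA, by −1.18 ± 0.69. Immediate early genes had 1 of 13 higher, Ier3 (0.74 ± 0.25), and 3 lower, Nr4a1 (−1.03 ± 0.24), Ccn2 (−0.94 ± 0.072) and Egr1 (−0.68 ± 0.076). Lymphocyte markers fell beside the cell cycle genes, and their part was not tested.

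**Figure D3:**
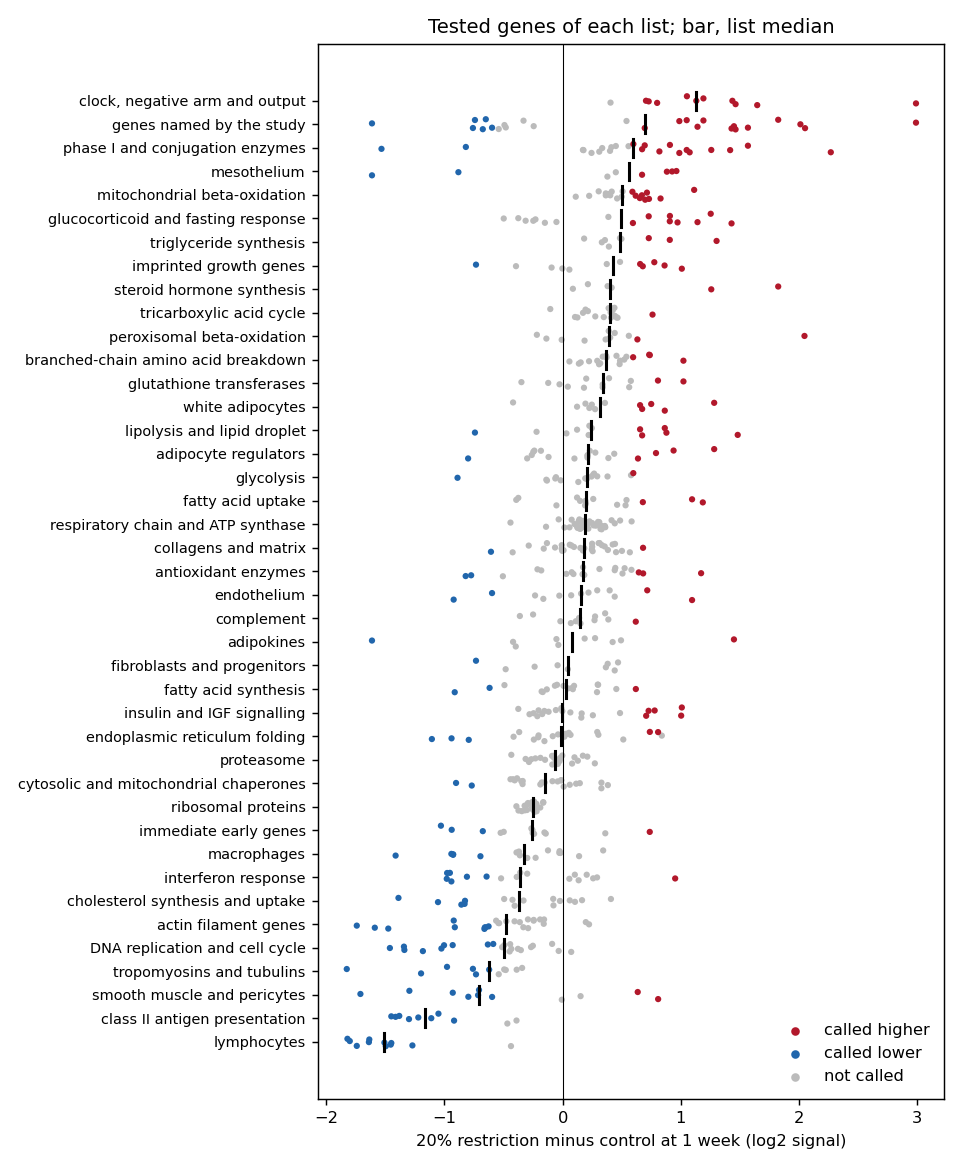
Log2 difference of the 20% pool from the control pool at 1 week for the tested genes of each list with at least 5, where points are genes (red called higher, blue called lower, grey not called) and the black bar is the list median. The clock's negative arm lies highest with a median of 1.13 and lymphocyte markers lowest with −1.51; all genes together have a median of −0.0020.

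Growth-related and structural lists varied in their shifts. Of imprinted growth genes 5 of 12 tested genes were called higher and 1 lower (median 0.43). The higher ones included Grb10, Plagl1, a transcription factor of this network (0.86 ± 0.54), and the non-coding H19, which read 87.3 and 141 on the 20% chips, against 53.7 and 78.4 on the control chips (0.77 ± 0.10). Mest, which is known to follow adipocyte expansion in mice, read 496 and 703 on the 20% chips, against 813 and 1186 on the control chips (−0.73 ± 0.029). Collagens and matrix had 1 of 31 genes higher, Timp1, an inhibitor of metalloproteinases (0.68 ± 0.26), and 1 lower, Mmp12, a macrophage elastase (−0.61 ± 0.061). All 21 ribosomal protein genes had differences below 0, between −0.39 and −0.16, without a call (median −0.26, −0.12 with centred chips). The proteasome had no call among 24 genes and a median of −0.064, which turned to 0.074 with centred chips. Endothelial genes had 2 of 13 higher, Gpihbp1 and Vwf (0.72 ± 0.22), and 2 lower, Plvap (−0.92 ± 0.31) and S1pr1 (−0.60 ± 0.051). Mesothelial markers had 4 of 8 higher, among them Krt19 (0.96 ± 0.12), and 2 lower, Slpi and Krt18 (−0.88 ± 0.19), with a median of 0.56.

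Where the study singled out genes on data including these chips, their direction here is no independent evidence. Other genes were named there for other tissues: Pdk4 and G0s2 for muscle, Per2 for intestine, Egr1 and Nr4a3 for hypothalamus and Por for liver. A list of 27 genes that the study named was used, which does not hold all, and of its 25 tested genes 13 were called higher and 6 lower. Besides those above, Akr1c14, a hydroxysteroid dehydrogenase (0.99 ± 0.073), and Sult1a1, a sulfotransferase (0.69 ± 0.22), were higher. Cmtm6, a membrane protein that stabilises PD-L1 in human cells (−0.65 ± 0.23), and Tubb2a (−0.76 ± 0.27) were lower. Those not called were Fads1, a desaturase (−0.49), Tubb4b (−0.54), Tpm4 (−0.48), Cyp51 (−0.33, although 1 of its 2 probe sets was called lower), Cd36 and Actg1. The study used MAS5 change calls without a fold minimum, an unlike threshold. By these it marked Fads1, Tubb4b, Tpm4 and Actg1 as lower in adipose tissue at this level and time. It marked Cd36, on another probe set, as higher. Hsp90aa1, a cytosolic chaperone, had no probe set of its own symbol alone, and Nr4a3, an orphan nuclear receptor, was below the filter. Dhcr7 and Por, described above, were named by the study but are outside that tally, as are Dnase1l3, a secreted DNase of myeloid cells, at 99.9 and 173 on the 20% chips, against 362 and 368 on the control chips (−1.47 ± 0.54), and Mpeg1, perforin-2 of macrophages, at 67.6 and 84.6 on the 20% chips, against 157 and 182 on the control chips (−1.16 ± 0.079). Both were called lower. Over the other 8 pools their correlations with the lymphocyte score were 0.898, just under the limit of 0.9, and 0.94.

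The pools of 1 month came from other rats and shared no RNA with those of 1 week, and exocrine pancreas markers averaged 2.77 in the 20% pool and 2.87 in the control pool there. At 1 month 600 probe sets (6.31%) were called higher and 969 (10.2%) lower. Of the 676 probe sets called higher at 1 week, 323 (47.8%) were called higher at 1 month too, which was 53.8% of the calls of 1 month, and 4 were called lower. Of the 820 called lower at 1 week, 501 (61.1%) were called lower again, which was 51.7% of those of 1 month, and 26 were called higher. Their median differences were 0.78 at 1 week and 0.56 at 1 month for the higher, and −0.82 and −0.76 for the lower. Among lower calls that did not follow the lymphocyte score, itself taken over pools that include those of 1 month, 248 of 558 (44.4%) were called again. Lymphocyte markers differed more at 1 month, with a mean log2 signal of 4.20 in the 20% pool and 7.75 in the control pool, so the marker level shifted the same way at both durations.

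Single genes showed where the durations met and parted. Dbp read 174 and 166 on the 20% chips, against 24.3 and 23.2 on the control chips at 1 month, a difference of 2.84. Clock genes as a list had a median of 1.10 at 1 month with 8 of 11 called higher, and mitochondrial beta-oxidation a median of 0.59. Gabbr1 (2.32), Star (2.50), Ehhadh (1.91), Scd2 (−2.26) and Dhcr7 (−1.14) kept their direction and a call. Slc7a8 read 54.5 and 54.4 on the 20% chips, against 55.0 and 49.5 on the control chips at 1 month (0.062), and Pkn3 (0.040), Nr1d1 (0.32), G0s2 (0.037) and Fkbp5 (0.34) were likewise not called then. Of the leading lower genes, the dim Ggt1 (−0.35), Cap2 (0.17), Map1a (0.26) and Grem1 (−0.36) were not called either. Pcp4 was called higher (2.25), and the lymphoid Glycam1 was called lower again (−4.39). Whether the durations differ for these genes was not tested, because each rests on 1 pool per group.

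**Figure D4:**
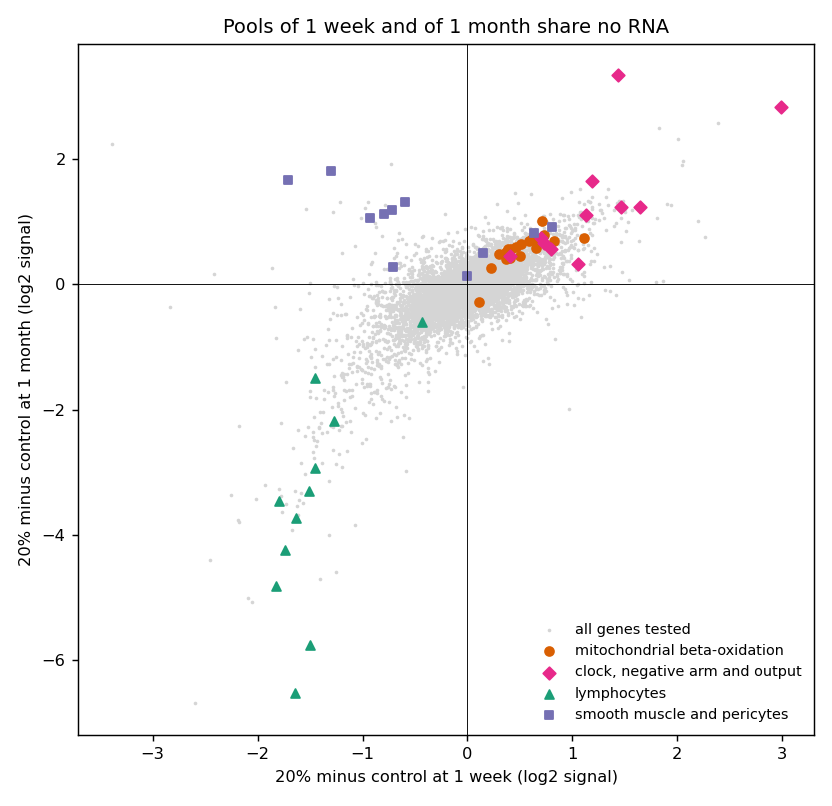
Log2 difference of the 20% pool from the control pool at 1 week (horizontal) and at 1 month (vertical), with 1 point per gene tested and 4 lists in colour. Clock genes and mitochondrial beta-oxidation lie up and to the right, lymphocyte markers down and to the left, and most smooth muscle genes in the upper left, lower at 1 week and higher at 1 month.

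The 20% pool was then placed among the other levels of 1 week, which were set against the same control pool and so are not separate evidence. In the order 5%, 10%, 20% and 30%, the probe sets called higher at 20% had median differences of 0.47, 0.66, 0.78 and 0.85, and those called lower had −0.46, −0.64, −0.82 and −0.93. Dbp was near its full difference at the mildest level, with 2.64, 2.81, 2.99 and 2.76 in that order, and Nr1d2 likewise with 1.24, 1.46, 1.46 and 1.44. Star gave 0.75, 1.36, 1.82 and 1.87 and Ehhadh 1.20, 1.597, 2.05 and 2.34, each larger at every step. Pdk4 gave −0.18, 0.26, 1.14 and 1.54, and Slc27a1 gave 0.27, 0.56, 1.19 and 1.37. In both, the 2 milder pools lay well under the 20% pool. Rgs2, a regulator of G-protein signalling, gave 0.51, 0.32, 1.503 and 2.05, and Oxtr, the oxytocin receptor, −0.42, −0.84, −1.61 and −1.88; this pair was chosen after its values were seen. Oxtr read 70.1 and 96.1 on the 20% chips, against 206 and 305 on the control chips (−1.61 ± 0.079), and Rgs2 read 593 and 871 on the 20% chips, against 222 and 289 on the control chips (1.503 ± 0.12). Actg2 followed no order, with −0.81, 0.64, −1.71 and −1.04.

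**Figure D5:**
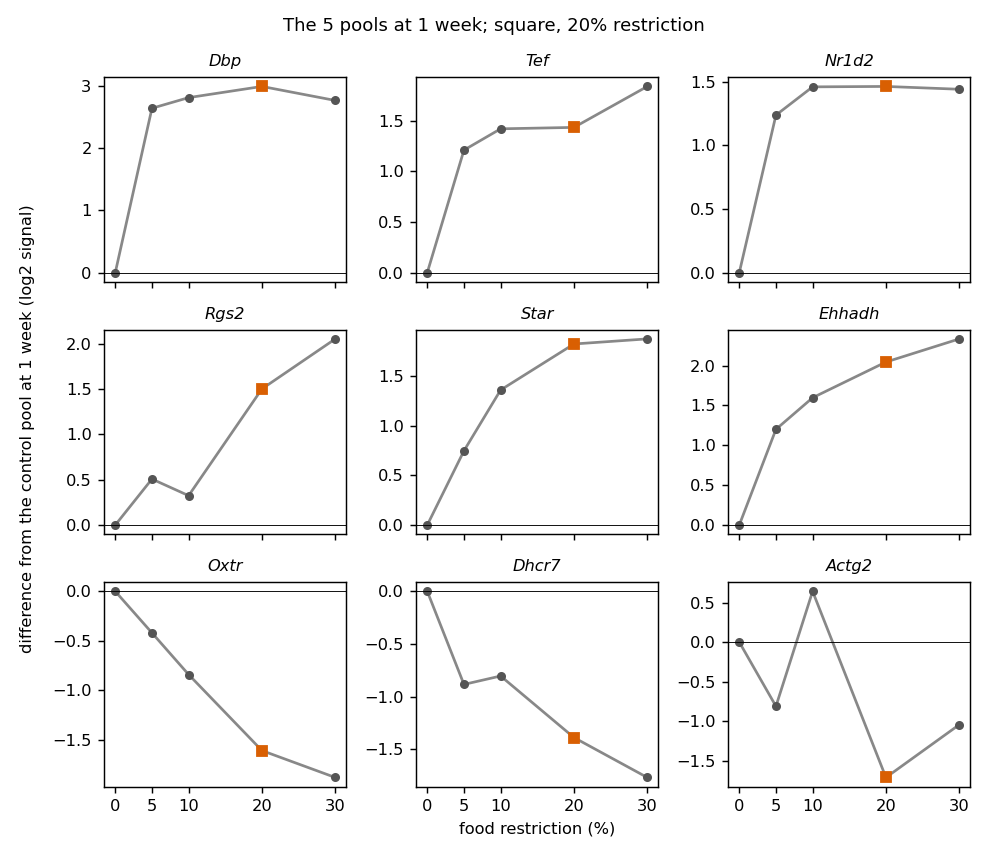
Log2 difference from the control pool at 1 week for 9 genes against food restriction in percent, with 1 pool (mean of 2 chips) per point and the 20% pool as a square; each panel has its own vertical scale. Dbp and Nr1d2 are near a plateau from 5% on, and Actg2 rises and falls without order. Rgs2 and Oxtr have their largest step between 10% and 20%, which spans more percent than the steps below it.

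A comparison that leaves out the control pool set 20% against the mean of the 5% and 10% pools, with the same call rule. Fewer probe sets passed it, 110 (1.16%) higher and 304 (3.2%) lower. The 20% pool enters both comparisons, so they are not independent. Pdk4 differed by 1.10 here, Rgs2 by 1.09, Coq8a by 0.84, Usp2 by 0.82, Star by 0.77, Slc27a1 by 0.77 and Fkbp5 by 0.76. On the lower side Oxtr differed by −0.98, Scd2 by −1.07, Tubb2b by −1.37, Actg2 by −1.63 and Cnn1 by −1.26. For Dbp (0.26), Nr1d2 (0.11) and Pparg (0.29) the 20% pool was close to the mean of the milder ones. Cd3g was close to it as well (−0.077), but the milder pools lay far apart, at −0.75, −2.73, −1.82 and −4.74 from the control pool in the order of levels. The clock list had a median of 0.12, mitochondrial beta-oxidation 0.19, lymphocyte markers −0.077 and smooth muscle genes −0.42.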

How the data were processed

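Complementary RNA from adipose tissue, pooled from 5 rats per group, was hybridised to 2 Affymetrix rat expression chips per pool. The table that the authors deposited gives intensity, as linear MAS5 signals from Affymetrix software, whose scaling target is not given in the sources used here. Trimmed means (trim 0.02) of the signals showed that chips of one replicate number shared a scale, so chips were paired by that number.

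Of 15923 probe sets, 57 array controls were left out. GEO's platform table gave 12783 of 15866 probe sets 1 gene symbol, 312 several and 2771 none, and 12748 were matched to the GRCr8 gene table, through which old symbols were updated. Signals under 1 were set to 1 and log2 was taken. The filter on low signal kept 9520 probe sets whose mean log2 signal over the 20 chips reached the 40th percentile, a signal of 22.8. Set aside were genes of the pancreas and islet lists and probe sets at least 1 log2 unit higher in the control pool of 1 week than in each of 7 other pools (5% and 10% at 1 week and the 5 of 1 month), which left 9506. The brightest probe set stood for a gene. Of 137 called genes with several tested probe sets, 75 had all called alike, and 1 had another called the opposite way. No test is possible with 1 pool per group, and the number of arrays limits the precision.

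Genes were named by rule: the 15 of largest difference called in each direction, up to 4 called genes per list (or the 2 of largest difference where none was called), and 27 of the genes that the study named. Further list members were named to complete a list's account, and those, Rgs2, Oxtr and Gls2 were chosen after their values were seen. The call rule, the gene lists and the comparisons were chosen with earlier results of these data known. Alternatives changed the filter, the floor, the scaling, the fold minimum, the pairing, the set-aside rule and the chips used. Steps were tested on simulated data. Promoters came from RefSeq's table for GRCr8, and no genome was used. Python 3.11.15, numpy 2.4.6, pandas 2.3.3 and scipy 1.17.1 were used.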

Additional observations from a re-analysis of the deposited data

Results flagged for a closer look

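Among the genes named by rule, 5 were called in opposite directions at 1 week and 1 month, each chip pair moving one way at 1 week and the other way at 1 month; that difference was not tested. Actg2, of visceral smooth muscle, differed by −1.71 at 1 week and 1.67 at 1 month, Cnn1 (calponin) by −1.30 and 1.81, and Mylk, myosin light chain kinase, by −0.93 and 1.06. Tpm2, a muscle tropomyosin, differed by −0.98 and 1.21. Pcp4, a calmodulin-binding peptide, differed by −3.39 and 2.25, and its signals at 1 month were 203 and 174 on the 20% chips, against 47.1 and 33.1 on the control chips. Of the other smooth muscle genes in the text, Tagln (−0.80 and 1.13), Des (−0.72 and 1.18) and Myh11 (−0.60 and 1.32) were called in opposite directions too. The mean log2 signal of the smooth muscle list at 1 week was 6.90 in the 20% pool and 7.37 in the controls. At 1 month it was 8.05 in the 20% pool and 7.06 in the controls. The level also varied among pools of other levels (7.62 at 10% and 1 week, 6.88 at 10% and 1 month), and the part of vessel or muscle content was not tested.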

How the results depend on the processing

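Counts of calls depended on the settings more than directions did. Against 676 higher and 820 lower, the counts were 1391 and 2444 with no filter, 433 and 488 with 16 added to the signal in place of the floor, 1123 and 542 with each chip centred on its median (828 and 674 with quantile normalization), and 159 and 249 with a fold minimum of 2. Calls shared with 1 month, 323 higher and 501 lower, became 620 and 328 with centred chips and 72 and 174 at a fold minimum of 2, and the lower became 1000 with no filter. The set-aside rule took 14 probe sets, 9 when 2 log2 units were asked for and 8 when only lists were used, and with none set aside 831 were called lower. The replicate block is the pairing by chip number; with no replicate block, chips scaled to their trimmed mean and all 4 chip-to-chip differences of one sign gave 670 and 809.

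With only 1 chip pair, where the sign rule asks less, higher calls ranged from 761 to 999, lower calls from 869 to 1162, calls shared with 1 month from 308 to 364 higher and from 453 to 595 lower. Lists with a median of at least 0.2 numbered 17 higher and 11 lower, 24 and 8 with centred chips, 21 and 10 with quantile normalization, and between 17 and 19 higher and 10 and 11 lower with 1 pair. In the alternatives run, 241 list medians moved by less than their spread and 87 by more, while 1182 values of named genes moved by less and 138 by more; no named gene that was called changed sign. Of 149 called genes named by rule, 76 were called alike at a fold minimum of 2, 140 with centred chips, 134 with 16 added and between 128 and 137 with 1 pair, so calls near the fold minimum, such as S1pr1 (−0.60), can be lost. Dim probe sets limit the precision, with a median SD of chip pairs of 0.25 below a signal of 64.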

Other observations

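A few genes outside the pancreas lists shared the excess of the control pool at 1 week and were set aside with them. Ggh, gamma-glutamyl hydrolase, read 141 and 194 on the 20% chips, against 692 and 1007 on the control chips. Ero1b, an oxidase of the endoplasmic reticulum, read 18.9 and 37.7 on the 20% chips, against 109 and 92.2 on the control chips. Slc38a5, an amino acid transporter, read 22.7 and 21.6 on the 20% chips, against 81.1 and 101 on the control chips. Ins1, insulin, which stood in the islet list, read 15.9 and 35.0 on the 20% chips, against 119 and 147 on the control chips. Most of the islet list was dim, with 2 of 13 genes above the low-signal filter on each control chip. The mean log2 signal of that list was 3.11 in the control pool, 1.42 in the 20% pool and 1.80 to 2.51 in the others.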
